A study of Mus musculus with 5 samples.

Results

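The clustered protocadherins are the 57 protein-coding genes of the mouse annotation whose symbols start with Pcdha, Pcdhb or Pcdhg, among 21755 protein-coding genes of chromosomes 1 to 19 and X. They lie in 3 arrays on chromosome 18 of mm10 (GRCm38). The Pcdha cluster spans chr18:36930184-37187661 with 14 genes, the Pcdhb cluster chr18:37264938-37524479 with 22 genes, and the Pcdhg cluster chr18:37661793-37841873 with 21 genes. The 21 Pcdhg genes comprise 12 Pcdhga, 6 Pcdhgb and 3 Pcdhgc genes. The annotation holds 2 records with the symbol Pcdha11, and both were kept under their identifiers, ENSMUSG00000007440 and ENSMUSG00000102206.

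Clustered protocadherins are cell surface proteins of the cadherin superfamily, best known from neurons, where each cell chooses a small set of promoters and so displays its own combination of isoforms. In the Pcdha and Pcdhg clusters, each promoter drives a large variable exon that encodes the extracellular cadherin repeats, the transmembrane stretch and a short cytoplasmic part, and this exon is spliced to constant exons shared by the whole cluster. Pcdhb genes have no constant exons and carry the whole protein in 1 exon. The C-type isoforms at the end of the Pcdha and Pcdhg arrays (Pcdhac1, Pcdhac2, Pcdhgc3, Pcdhgc4 and Pcdhgc5) are regulated differently from the alternate isoforms, which are chosen at random. All 57 members had a coding segment of at least 2 kb, between 2316 and 2562 bp long with a median of 2397 bp.

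The data are 3 lists of chromatin immunoprecipitation and sequencing (ChIP-seq) peaks from mouse embryonic stem cells (mESCs), 1 library for each list. REX1 (encoded by Zfp42) is a zinc finger transcription factor, and RNF12 (encoded by Rlim) is the ubiquitin ligase that targets it for degradation. The RNF12 lists come from Rlim+/- female mESCs of a 129/Sv-Cast/Ei F1 line that stably expressed RNF12 carrying FLAG and V5 tags from a CAG promoter vector under puromycin selection. The tagged protein was either RNF12 WT or the catalytically inactive RNF12 H569A,C572A, called inactive RNF12 where lists are enumerated. Both lines received 15 μM MG132 for 3 h, which blocks the proteasome and stabilises RNF12 and its substrates. Chromatin was fixed with 2 mM DSG and 1% formaldehyde and was precipitated through the V5 tag. The REX1 list is labelled as V5-tagged REX1 in WT mESCs, whereas the study describes REX1 occupancy as taken from earlier work, and these descriptions were not reconciled. Each RNF12 list therefore describes 1 line that expresses a tagged protein from a transgene.

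There were 96050 peaks in the REX1 list, 97602 in the RNF12 WT list and 98124 in the list of inactive RNF12, and their median fold enrichment over the control was 4.47, 4.59 and 6.83. The number of reads behind a list is unknown, the control behind each list was not settled, and there are no replicates. Counts are therefore set beside the same count over all genes, without a test, fold enrichments are compared only within a list, and a difference between lists cannot be told apart from a difference between libraries. Intervals are 95% Wilson intervals and cover counting error only.

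A promoter was counted as occupied where a peak summit lay within 1 kb of an annotated transcription start site (TSS) of a coding transcript. The clustered protocadherins were occupied less often than protein-coding genes at large in each list. REX1 summits marked 30 of 57 member promoters (52.6%, interval 39.9% to 65.0%), against 66.0% of all protein-coding genes. RNF12 WT summits marked 21 (36.8%, 25.5% to 49.8%), against 67.6% of all genes, and RNF12 H569A,C572A summits marked 27 (47.4%, 35.0% to 60.1%), against 66.7%. All 3 lists had a summit at 14 member promoters (24.6%, 15.2% to 37.1%), against 59.2% of all genes, and 18 member promoters had none in any list. The 456 other protein-coding genes of chromosome 18 were occupied at 73.9%, 75.9% and 75%. The distance matters for this count: within 2000 bp of a TSS, which takes in summits inside the variable exons, 43 members were marked by REX1, 48 by RNF12 WT and 42 by inactive RNF12, against 68.5%, 70.1% and 69.3% of all genes, so that the family no longer lay below all genes.

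Occupancy differed between the clusters. In the Pcdhb cluster, REX1 marked 6 of 22 promoters, RNF12 WT 1 and RNF12 H569A,C572A 0 (0%, interval up to 14.9%). No list had a promoter summit at 16 Pcdhb genes (72.7%, 51.8% to 86.8%), against 26.1% of all genes. In the Pcdhg cluster, REX1 marked 18 of 21 promoters and each of the RNF12 lists marked 13. In the Pcdha cluster, REX1 marked 6 of 14 promoters and RNF12 WT 7, whereas RNF12 H569A,C572A marked all 14 (100%, 78.5% to 100%). Of these 14, 3 remained when peaks near repeated sequence were left out, as described below. Occupied promoters were thus mainly those of Pcdhg genes for REX1 and of Pcdha and Pcdhg genes for the RNF12 lists.

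**Figure D1:**
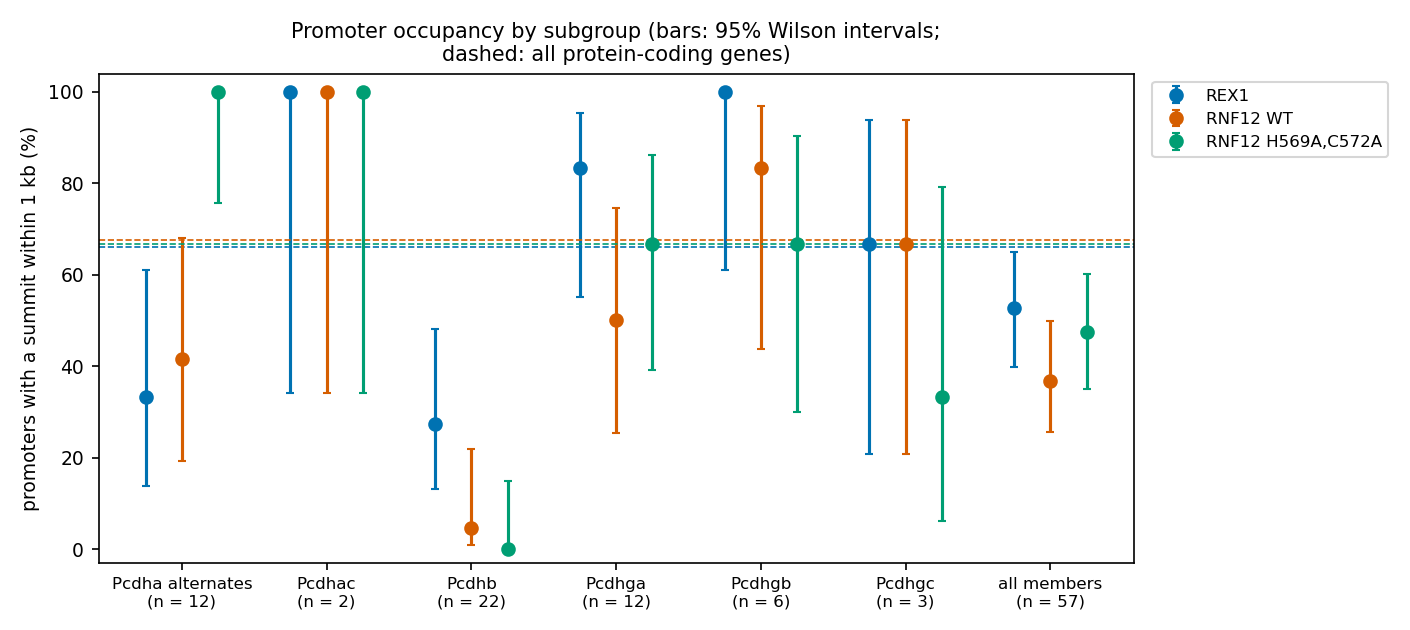
Share of promoters with a summit within 1 kb (y axis, percent) for each subgroup of members (x axis), with points for the 3 lists, bars for 95% Wilson intervals and dashed lines for all protein-coding genes. Pcdhb promoters sit below the dashed lines in all 3 lists, and the 12 alternate Pcdha promoters reach 100% in the RNF12 H569A,C572A list alone.

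Of the 5 C-type promoters, REX1, RNF12 WT and inactive RNF12 marked 4, 4 and 3 (80%, 80% and 60%), against 66.0%, 67.6% and 66.7% of all genes. Pcdhac1 had promoter peaks of 4.66-fold enrichment for REX1, 5.38 for RNF12 WT and 9.99 for inactive RNF12, with summits 174 bp after, 59 bp before and 25 bp before its start. Pcdhac2 had peaks of 7.54, 5.61 and 9.58, the REX1 peak at chr18:37143487-37143893 and the RNF12 WT peak at chr18:37143498-37143609. Both genes were marked in all 3 lists, and so was Pcdhgc3, the first C-type gene of the Pcdhg array, at 4.61, 5.44 and 8.13. Pcdhgc4 was marked by REX1 and RNF12 WT but not by RNF12 H569A,C572A. The REX1 summit of Pcdhgc4 lay 1202 bp after the gene start and counted only through an inner start of its annotation. Pcdhgc5 had no summit within 1 kb in any list.

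Besides Pcdhac1, Pcdhac2 and Pcdhgc3, the promoters marked in all 3 lists were those of Pcdha7, Pcdha11 (ENSMUSG00000102206), Pcdhga2, Pcdhga3, Pcdhga4, Pcdhga5, Pcdhga8, Pcdhgb4, Pcdhgb5, Pcdhgb6 and Pcdhgb7, of which none is a Pcdhb gene. For REX1 and RNF12 WT, Pcdha11 (ENSMUSG00000102206) counted only through an inner start. The nearest summits lay 1671 and 1664 bp after its gene start. Pcdhga8 held the highest promoter peak of the family in the REX1 list, at chr18:37725661-37726168 with 18.01-fold enrichment, higher than 99.6% of all REX1 peaks. Its RNF12 WT peak, at chr18:37726521-37726613, reached 6.35 but did not overlap the REX1 peak. Its RNF12 H569A,C572A peak was at 4.83, below the median of that list. Pcdhga6 and Pcdhga7 followed in the REX1 list at 9.99 and 8.89, and neither had an RNF12 WT promoter peak. Pcdhga3 had 7.42, 6.39 and 6.12 and Pcdhga4 7.74, 4.54 and 4.25 in the order REX1, RNF12 WT, inactive RNF12. Pcdhga2 had 3.33, 5.33 and 9.399, and Pcdhga5 4.19, 3.72 and 5.82. The alternate Pcdhga genes thus reached high REX1 values, with a median of 6.36 over the 10 that were marked, whereas the Pcdhgb promoters stayed low in this list, at 2.60 to 4.49 over all 6.

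In the RNF12 WT list, Pcdhgb7 had the highest promoter peak of the family at 9.08, higher than 98.9% of all peaks of that list. Its REX1 and RNF12 H569A,C572A values were 4.14 and 4.72. Pcdhgb4 had 2.60, 5.74 and 5.82, Pcdhgb5 3.74, 5.18 and 5.15, and Pcdhgb6 4.47, 5.95 and 7.07 in REX1, RNF12 WT and inactive RNF12. Among the Pcdhb genes, Pcdhb1, the first of its array, was the only one with an RNF12 promoter peak, at 7.11 for RNF12 WT beside 3.46 for REX1. The other REX1 promoter peaks of this cluster were at Pcdhb4 (8.61), Pcdhb6 (5.57), Pcdhb14 (5.39), Pcdhb22 (5.18) and Pcdhb10 (2.59).

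In the RNF12 H569A,C572A list, Pcdha genes took the highest promoter values of the family. Pcdha7 reached 18.5, higher than 93.9% of the peaks of the list, with a peak at chr18:36973984-36974184, and its REX1 and RNF12 WT values were 3.60 and 5.86. Pcdha11 of ENSMUSG00000102206 came next at 13.98, from a peak near its inner start, 1644 bp after the gene start, while its summit at 304 bp had a fold enrichment of 7.73. Pcdha12 (13.7), Pcdha4 (12.3), Pcdha9 (11.2), Pcdha11 of ENSMUSG00000007440 (10.1), Pcdha2 (9.98) and Pcdha1 (9.80) followed among the alternate Pcdha genes. The median over the 12 alternate Pcdha promoters was 10.0, against 11.5 over the 14509 marked promoters of all protein-coding genes. So these peaks were many, but not high for promoters of this list. Member promoters were lower than all gene promoters in the other lists too, at a median of 4.63 against 5.66 for REX1 and 5.38 against 5.86 for RNF12 WT.

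Most promoter summits of the family lay after the start, inside the variable exon, rather than before it. In the 1 kb before the gene start, 3, 4 and 2 of 57 members had a REX1, RNF12 WT or inactive RNF12 summit (5.26%, 7.02% and 3.51%), against 31.3%, 31.8% and 26.7% of all protein-coding genes. In the first 500 bp after the start, 22, 18 and 25 members had a summit (38.6%, 31.6% and 43.9%), against 45.7%, 48.2% and 44.5% of all genes. The gap to all genes was thus wider before the start than after it in each list. The alternate Pcdha genes had 13 RNF12 H569A,C572A summits within 1 kb of the gene start. They lay 159 to 402 bp after it, with a median of 270 bp. Summits that counted only through the inner start of Pcdha11 (ENSMUSG00000102206) are not among them. REX1 summits of Pcdhgb promoters lay within 132 to 353 bp, median 177 bp, and those of Pcdhga promoters had a median of 210 bp.

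Beyond the promoters, the family carried many summits in the far part of its variable exons. A summit within the coding segment and more than 1 kb after the gene start was found in 41 of 57 members for REX1 (71.9%, interval 59.2% to 81.9%), 47 for RNF12 WT (82.5%, 70.6% to 90.2%) and 44 for inactive RNF12 (77.2%, 64.8% to 86.2%). Among all 719 coding segments of 2 kb or more, in which the members are included, the shares were 35.7%, 43.3% and 36.9%. All 3 lists had such a summit in 37 members (64.9%, 51.9% to 76.0%), against 25.2% of all such segments. Without the members, the other 662 segments had shares of 32.6%, 39.9% and 33.4%.

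From beyond 1500 to 2500 bp after the start, 39, 46 and 43 of 57 members had a REX1, RNF12 WT or inactive RNF12 summit (68.4%, 80.7% and 75.4%), against 9.13%, 9.25% and 7.15% of all protein-coding genes. The latter were not limited to genes with coding sequence at that distance. From beyond 1000 to 1500 bp, 3, 2 and 1 members had one (5.26%, 3.51% and 1.75%), against 9.13%, 8.96% and 7.01% of all genes. By subgroup, the alternate Pcdha genes were marked in 10, 12 and 12 of 12 exons, Pcdhb in 20, 20 and 21 of 22, and Pcdhgb in 6 of 6 in each list. Pcdhga exons were marked in 3, 7 and 4 of 12, and the 2 Pcdhac exons in 1, 0 and 0. Pcdhb genes thus had an exon summit in nearly every gene, and Pcdhb1 was the only Pcdhb gene without an exon summit in any list. The median position was 1728, 1780 and 1641 bp in the alternate Pcdha genes, 2113, 1996 and 1989 bp in Pcdhb, and 2062, 1988 and 2003 bp in Pcdhgb.

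**Figure D2:**
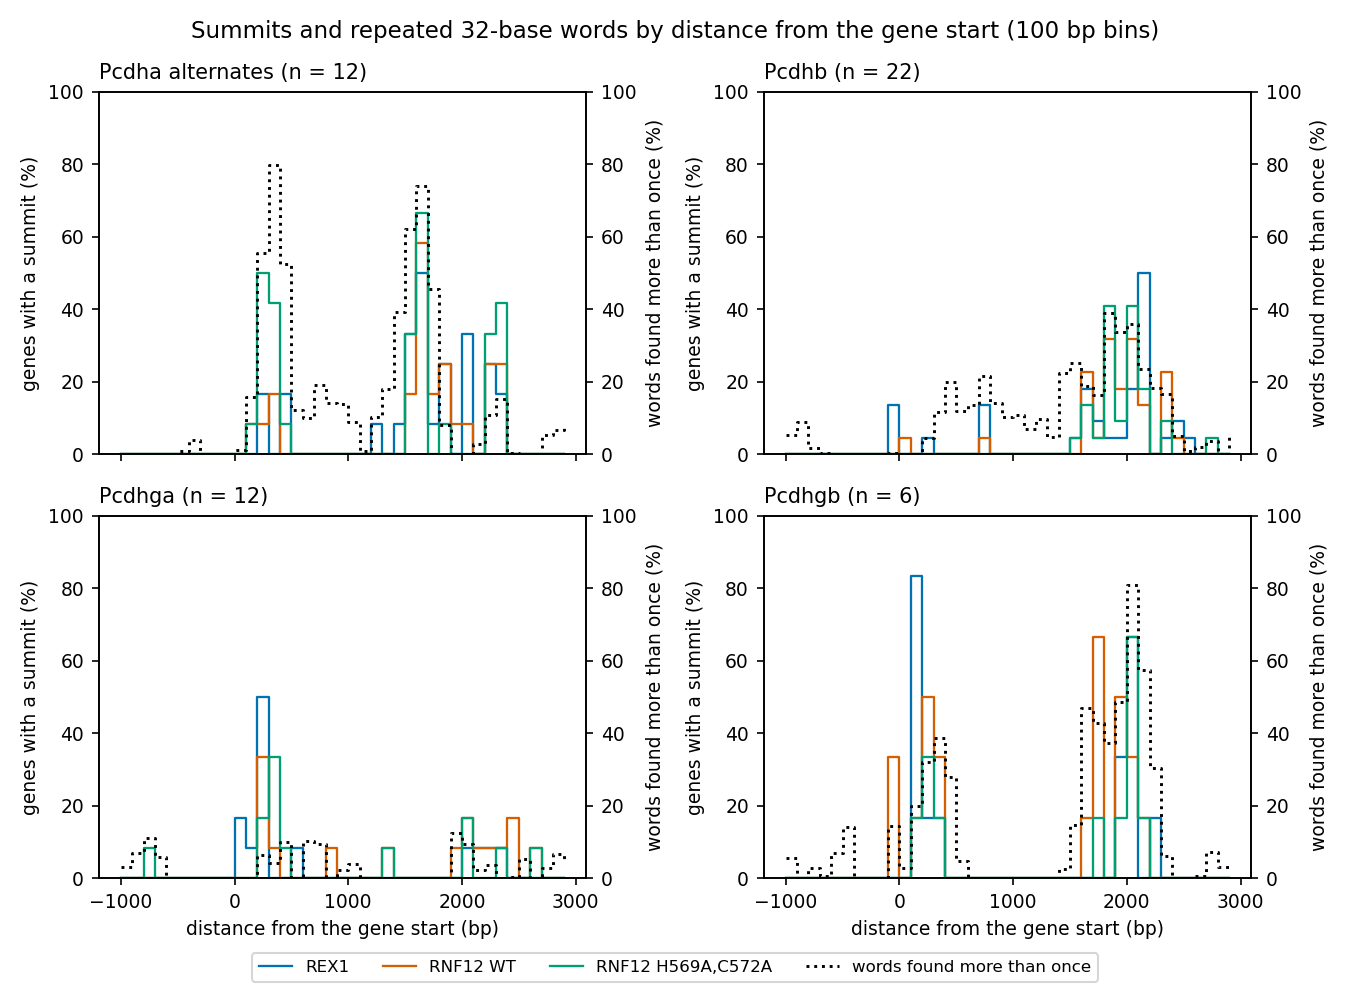
Share of genes with a summit (coloured lines, left axis, percent) in bins of 100 bp by distance from the gene start (x axis, bp) for the alternate Pcdha, Pcdhb, Pcdhga and Pcdhgb genes, and share of 32-base words found more than once in the genome (dotted line, right axis, percent). In the alternate Pcdha genes, the coloured lines and, beyond 1 kb, the dotted line are highest at 1600 to 1700 bp, but at 2000 to 2100 bp REX1 summits are found in 4 of 12 genes while the dotted line is at 0.

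The highest exon peaks differed by subgroup between the lists. In the REX1 list, Pcdhb17 had 14.9-fold enrichment at chr18:37486568-37487387, higher than 99.2% of the list but below the promoter peak of Pcdhga8, with 5.23 for RNF12 WT and 10.5 for inactive RNF12. Pcdhb12 had 10.5, 9.32 and 8.81 in REX1, RNF12 WT and inactive RNF12, and Pcdhb19 8.22, 2.57 and 13.4. Pcdhb genes held 9 of the 10 highest REX1 exon values. In the RNF12 WT list, Pcdha3 and Pcdhb12 shared the highest value of 9.32, followed by Pcdha9 and Pcdhb15 at 7.48 and Pcdhb11 at 7.18, so no subgroup led.

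In the RNF12 H569A,C572A list, Pcdhgb and alternate Pcdha exons held the 8 highest values. Pcdhgb1 had 24.6, Pcdhgb4 20.8, Pcdhgb2 20.2, Pcdha8 20.0, Pcdha4 19.6, Pcdha5 18.99, Pcdhgb5 18.6 and Pcdha3 17.04. The remaining Pcdhgb exons were lower, with Pcdhgb7 at 13.8 and Pcdhgb6 at 9.14. The corresponding RNF12 WT values of Pcdhgb1, Pcdhgb4, Pcdhgb2 and Pcdhgb5 were 4.75, 4.31, 4.34 and 4.25, near the median of 4.59 of their own list. Over the marked members, the median exon value was 5.31 for REX1, against 4.59 in other long coding segments, 4.58 for RNF12 WT, against 4.86, and 10.3 for inactive RNF12, against 6.83. The subgroup medians of the last list were 19.4 in Pcdhgb, 14.2 in alternate Pcdha, 8.73 in Pcdhb and 4.89 in Pcdhga.

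**Figure D3:**
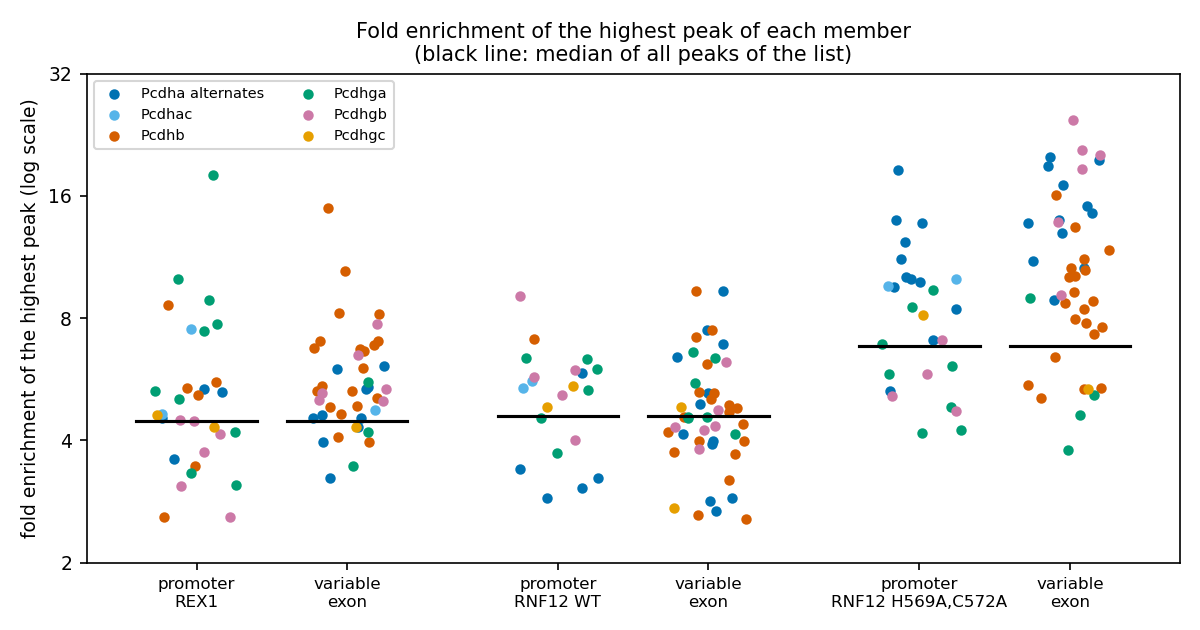
Fold enrichment (y axis, log scale) of the highest promoter peak and the highest variable exon peak of each member in the 3 lists, coloured by subgroup, with a black line at the median of all peaks of that list. Pcdhga8 stands at 18.01 among the REX1 promoters, and Pcdhgb and alternate Pcdha exons take the highest values of the RNF12 H569A,C572A list.

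The members are alike in sequence, and the reads were short, so every stretch of 32 bases (a word) of the family was counted on both strands of the genome. In the far part of the variable exons, 12669 words of the members occurred more than once, and all of these (100%) had every copy inside the 3 clusters. The median share of words found once was 83.1% over the members' exons and 100% over the other long coding segments. Repeated words were not spread evenly. In the alternate Pcdha genes, words found once fell to 20.2% at 300 to 400 bp and to 25.8% at 1600 to 1700 bp, in Pcdhb to 61.1% at 1800 to 1900 bp, and in Pcdhgb to 19.2% at 2000 to 2100 bp. In the 1600 to 1700 bp bin, 6, 7 and 8 of 12 alternate Pcdha genes had a REX1, RNF12 WT or inactive RNF12 summit. At 2000 to 2100 bp, where 100% of the alternate Pcdha words were found once, 4, 1 and 0 of 12 genes had a summit. In Pcdhga, no bin of the first 2500 bp fell below 87.4%, and the C-type exons had 100%.

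The word centred on the summit was found once at 64.2% of REX1, 60.8% of RNF12 WT and 40.3% of inactive RNF12 summits in member exons, against 95.3%, 94.8% and 90.3% in other long coding segments. Over whole lists it was found once at 84.8%, 84.2% and 48.6%, so the RNF12 H569A,C572A list held many more repeated summits across the genome. With only peaks whose summit word is found once, promoters were marked in 25, 15 and 13 members and exons in 30, 34 and 22. With only peaks that had no repeated word within 100 bp of the summit, promoters were marked in 20, 10 and 6 members (35.1%, 17.5% and 10.5%), against 62.6%, 64.0% and 61.5% of all genes. Exons were then marked in 12, 13 and 9 members (21.1%, 22.8% and 15.8%), against 28.9%, 35.5% and 28.5% of all long segments. On such peaks, the share of members was below that of all genes at promoters and no longer above that of all long segments in exons.

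No Pcdhgb exon kept such a summit in any list, but only 4.43 kb of the bases searched in these 6 exons had no repeated word within 100 bp. The alternate Pcdha exons kept 6, 4 and 4 of 12 (50%, 33.3% and 33.3%), and Pcdhb exons 2, 3 and 2 of 22. For both RNF12 lists, the alternate Pcdha share is near that of all long segments above. However, only 45.5% of the bases searched in alternate Pcdha exons had no repeated word within 100 bp, against 85.9% in other long segments. Of the alternate Pcdha promoters, which were all marked in the RNF12 H569A,C572A list, 1, 0 and 1 remained for REX1, RNF12 WT and inactive RNF12. The 1 in each case was Pcdha11 of ENSMUSG00000102206, through a summit near its inner start, at 2383 and 2358 bp after the gene start, and 0 summits of this kind lay within 1 kb of the gene start of an alternate Pcdha gene in any list. Both Pcdhac promoters remained in each list, and Pcdhga promoters remained in 8, 2 and 2 of 12.

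Because repeated bases could not give such a peak, summits were also counted per 10 kb of each kind of base. In the exon bases with no repeated word within 100 bp, 54.96% of the bases searched in members, summits stood at 2.83, 3.44 and 2.22 per 10 kb for REX1, RNF12 WT and inactive RNF12, close to the 2.30, 3.38 and 2.66 of other long segments. In the exon bases near a repeated word, they stood at 13.1, 15.3 and 13.8 per 10 kb in members and at 1.38, 1.90 and 2.28 in other genes. Within 1 kb of gene starts, members were likewise higher near a repeated word, at 5.80, 5.80 and 10.3 per 10 kb against 1.82, 1.84 and 2.08 in other genes. Away from repeated words they stood at 2.401, 1.64 and 0.764 there, against 6.57, 7.09 and 5.42. The alternate Pcdha exons also had summits away from repeated words, with 7, 6 and 5 summits in 8.08 kb without repeated words. These few summits made 8.67, 7.43 and 6.19 per 10 kb, above the 2.30, 3.38 and 2.66 of other long segments. A read within a repeated stretch may match more than 1 member. The part of read placement in the counts was not tested.

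**Figure D4:**
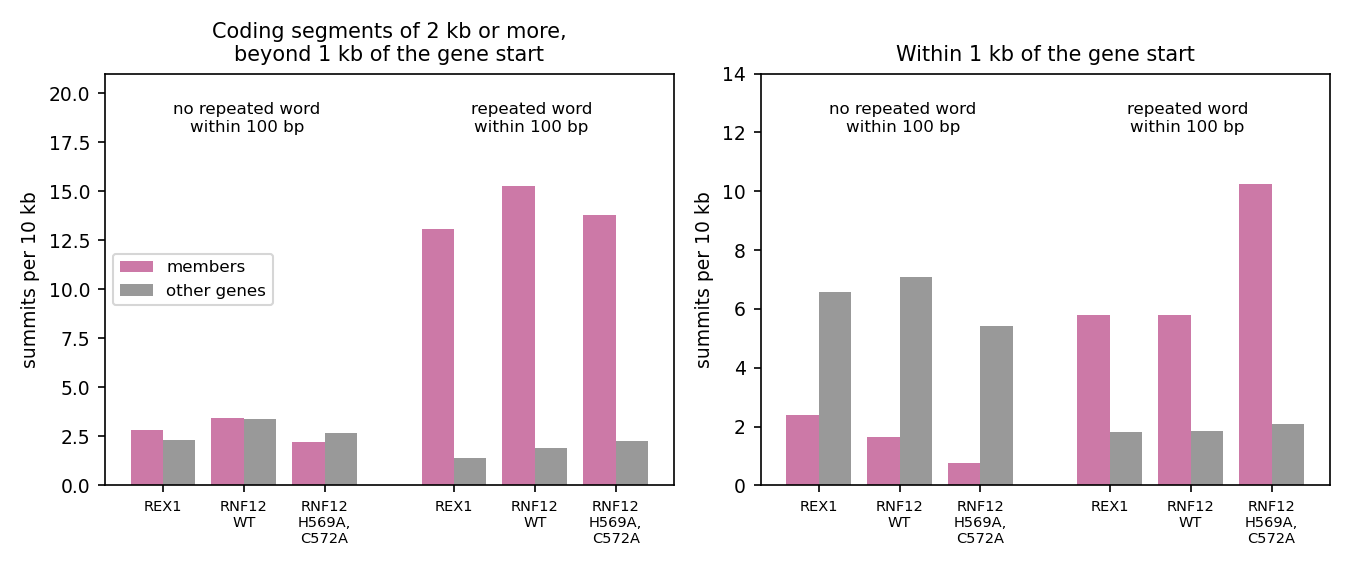
Summits per 10 kb (y axis) for members and all other genes in the 3 lists, split by whether a repeated 32-base word lies within 100 bp, in coding segments of 2 kb or more beyond 1 kb of the gene start (left) and within 1 kb of the gene start (right). In coding segments, members reach 13.1 to 15.3 near repeated words and stay at 2.22 to 3.44 elsewhere, and near gene starts they reach 5.80 to 10.3 near repeated words, above the 1.82 to 2.08 of other genes, and 0.764 to 2.401 elsewhere, below the 5.42 to 7.09 of other genes.

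Over the whole clusters, 120 REX1, 118 RNF12 WT and 123 inactive RNF12 summits were found in 697.101 kb, which is 17.2, 16.9 and 17.6 per 100 kb, against 3.06, 3.06 and 3.26 on chromosome 18 and 3.74, 3.801 and 3.78 over chromosomes 1 to 19 and X. Of these, 82, 88 and 91 lay elsewhere than within 1 kb of a member TSS. By cluster, the REX1 summits elsewhere numbered 29 in Pcdha, 30 in Pcdhb and 23 in Pcdhg. Those of RNF12 WT numbered 24, 34 and 30, and those of RNF12 H569A,C572A 32, 39 and 20. Of the summits elsewhere, 64, 77 and 66 were those of the variable exons. Peaks that overlapped across all 3 lists made up 45, 47 and 41 of the summits elsewhere, of which 41, 43 and 37 were in variable exons. With no repeated word within 100 bp, a measure described above, 25, 21 and 14 of the summits elsewhere remained. No such count is given here for chromosome 18 or for all chromosomes, so the density of the clusters cannot be compared on such peaks.

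**Figure D5:**
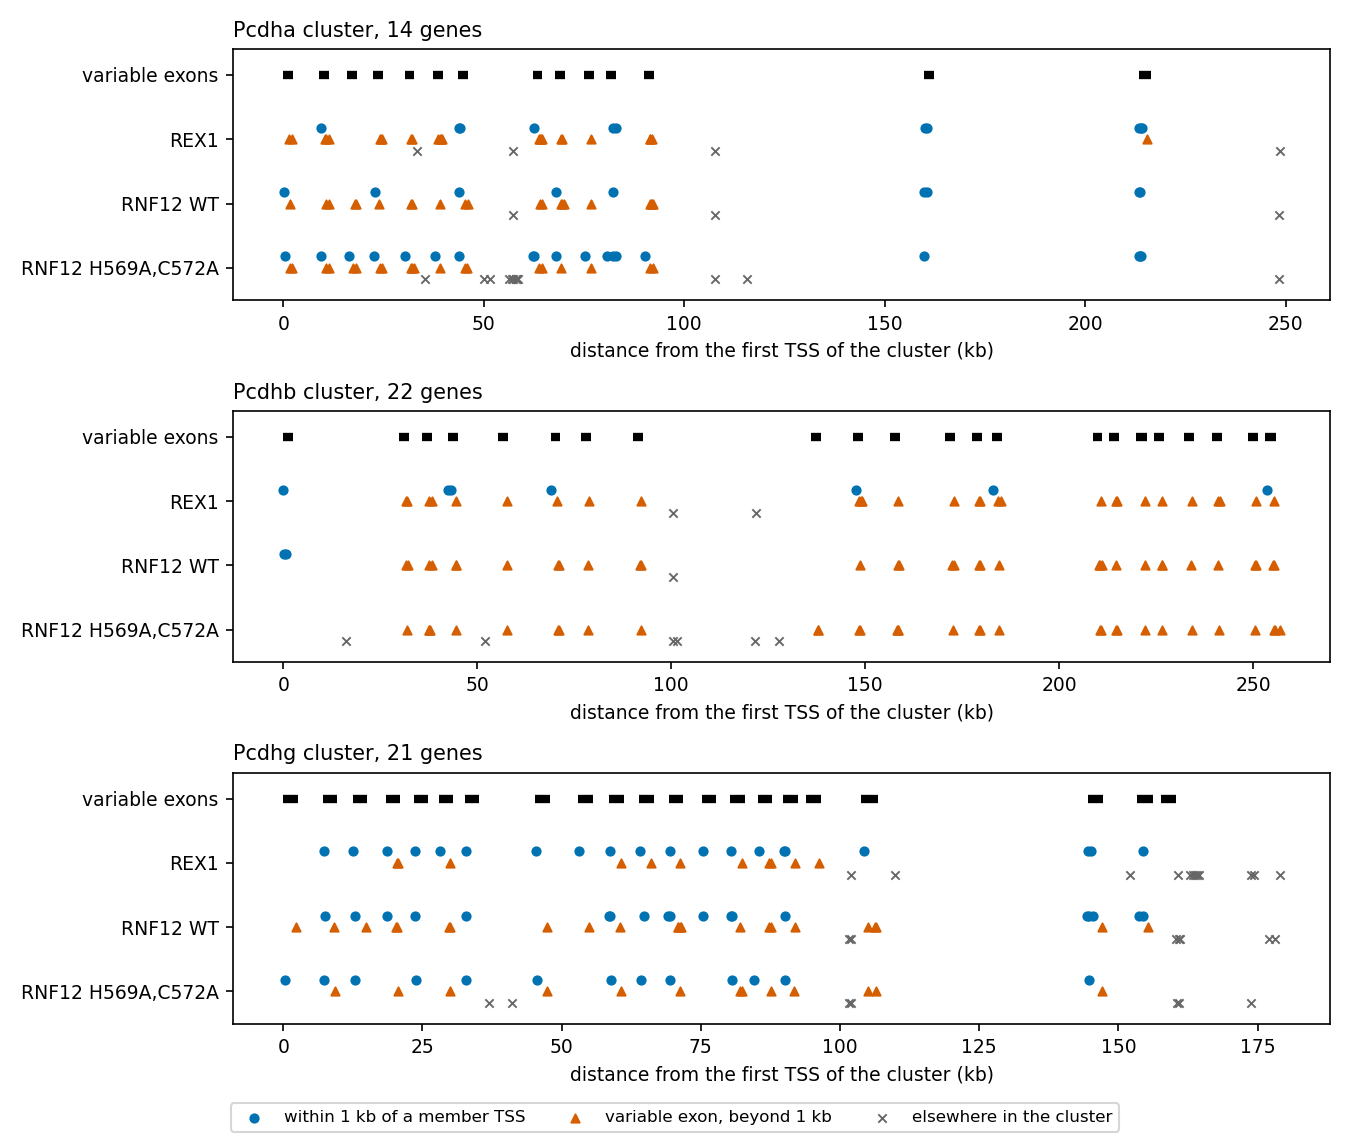
Positions of summits in the Pcdha, Pcdhb and Pcdhg clusters (x axis, kb from the first TSS of the cluster) for the 3 lists, with circles within 1 kb of a member TSS, triangles in variable exons beyond 1 kb, crosses elsewhere and black bars for the variable exons. Triangles stand under nearly every Pcdhb exon, where circles are few, and REX1 crosses gather at the right end of the Pcdhg cluster.

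Outside the promoters and variable exons of members, 4 sites had peaks that overlapped across all 3 lists. The first exon of Pcdhgb8, annotated as a polymorphic pseudogene and so not a member, had peaks of 3.88-fold enrichment for REX1, 8.75 for RNF12 WT and 28.2 for inactive RNF12, the last at chr18:37763646-37763891 and the highest elsewhere in the clusters in that list. Its summit words had 5, 5 and 4 copies. The pseudogene Gm36858, between Pcdha7 and Pcdha8, had peaks of 5.51, 2.57 and 23.8, the last at chr18:36987360-36987603, and its summit words had 801, 614 and 698 copies in the genome. A site 17740 to 17769 bp after the start of Pcdha12 had 5.17, 1.78 and 15.0 with 355, 1292 and 412 copies. A site 10184 to 10217 bp after the start of Pcdhb8, outside member genes, had 4.50, 4.58 and 16.8 with 47, 142 and 33 copies. None of the 4 sites had a summit word found once.

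Summits in introns numbered 12 for REX1, 5 for RNF12 WT and 15 for inactive RNF12. Of the REX1 ones, 9 lay in the Pcdhg cluster, mostly after Pcdhgc5, and all 9 had no repeated word within 100 bp. Of the RNF12 H569A,C572A ones, 10 lay in the Pcdha cluster, where most fell within Gm36858. A summit near the start of Gm10544, within the Pcdha introns after Pcdhac2, was found in each list, at 4.54 for REX1, 5.48 for RNF12 WT and 6.32 for inactive RNF12, with a summit word found once. The peaks there did not overlap across all 3 lists. These intron and Gm10544 summits were singled out after their values were seen.

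The share of occupied promoters that a pair of lists had in common was lower in the family than over all genes for each pair, without a test, and for members marked by RNF12 WT that REX1 also marked the share of all genes lay within the interval. Of the 30 members marked by REX1, 18 (60.0%, interval 42.3% to 75.4%) were marked by RNF12 WT and 18 by RNF12 H569A,C572A, against 93.1% and 92.9% over all genes. Of the 21 marked by RNF12 WT, 18 (85.7%, 65.4% to 95.02%) were marked by REX1 and 17 (81.0%, 60.0% to 92.3%) by RNF12 H569A,C572A, against 90.8% and 93.02%. Of the 27 marked by RNF12 H569A,C572A, 18 (66.7%, 47.8% to 81.4%) and 17 (63.0%, 44.2% to 78.5%) were marked by REX1 and RNF12 WT, against 91.9% and 94.3%. All 13 Pcdhg promoters marked by RNF12 WT were also marked by REX1. All 7 Pcdha promoters marked by RNF12 WT were also marked by RNF12 H569A,C572A, which had to be so because that list marked all 14. Where a promoter was marked in a pair of lists, the median distance between the highest peaks was 24.5 bp for REX1 and RNF12 WT, 69.5 bp for REX1 and RNF12 H569A,C572A and 38 bp for both RNF12 lists. In exons the medians were 35.5, 29 and 28 bp.

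The promoters of the family differed from most promoters in composition. In the window from 250 bases before to 50 after the start, their median GC content was 39.7%, against 55% over all protein-coding genes. The YY1 core AAGATGGC, searched on both strands, was in 0 of 57 member promoters (interval up to 6.31%) and in 2.93% of all. The strings of the REX1 motif (ATGGCGAC, ATGGCGCC, ATGGCGGC, ATGGCTAC, ATGGCTCC and ATGGCTGC), which overlap the YY1 core in ATGGC, were in 0 of 57 and in 7.43% of all promoters. The CTCF core was in 0 of 57 and in 0.483% of all. Within 50 bp of summits in variable exons, it was found at 2 of 64 for REX1 (3.13%, interval 0.861% to 10.7%), 2 of 77 for RNF12 WT (2.60%, 0.715% to 8.98%) and 1 of 66 for inactive RNF12 (1.52%, 0.268% to 8.10%), against 0.425%, 0.261% and 0.129% of all summits of each list. Within 50 bp of summits, a REX1 string was found at 4 of 38 REX1 summits within 1 kb of member starts (10.5%, 4.17% to 24.1%), 1 of 64 in variable exons (1.56%, 0.276% to 8.33%) and 12.8% of all REX1 summits. Over all summits of the clusters, it was found at 7 of 120 for REX1 (5.83%, 2.85% to 11.6%), at 4 of 118 for RNF12 WT (3.39%, 1.33% to 8.39%), against 4.68% of that list, and at 0 of 123 for RNF12 H569A,C572A (interval up to 3.03%), against 3.59% of that list. These letters are a description of the window, and their absence says nothing of the factors.

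The family can be set beside the 12 non-clustered protocadherins, adhesion genes with promoters of their own. Of these, 8, 8 and 10 were marked by REX1, RNF12 WT and inactive RNF12, or 66.7%, 66.7% and 83.3%, which is near the shares of all genes for REX1 and RNF12 WT. The 7 marked in all 3 lists (58.3%, against 59.2% of all genes) were Pcdh1, Pcdh7, Pcdh8, Pcdh9, Pcdh10, Pcdh11x and Pcdh19. Pcdh12 and Pcdh15 were marked in none. Pcdh1, on the same chromosome as the clusters, had 7.05, 5.15 and 8.71, and Pcdh9 had 5.00, 11.9 and 13.3. Of 15 genes whose products bear on clustered protocadherin promoters, all 15 were marked in each list, against 66.0%, 67.6% and 66.7% of all protein-coding genes. They comprise the insulator factor Ctcf, the cohesin genes Rad21, Smc1a, Smc3, Stag1 and Stag2, the cohesin loader Nipbl and release factor Wapl, the silencing genes Smchd1, Dnmt3a, Dnmt3b, Setdb1 and Trim28, and the zinc finger genes Zfp143 and Wiz. Values for Stag1 were 15.8, 11.5 and 28.3, for Rad21 15.2, 8.79 and 13.97, for Ctcf 8.15, 5.68 and 16.9, and for Smchd1, which represses clustered protocadherins, 3.29, 7.33 and 9.98.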

How the data were processed

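The members and gene lists were chosen with earlier results of these data known. The authors trimmed the reads with Trim Galore 0.6.7, aligned them with Bowtie2 2.5.0 to mm10 masked at differences between the parental strains, pooled reads of both alleles with SAMtools 1.10 and called narrow peaks with MACS2 2.2.7.1 with default settings. The deposited peak lists give, for each peak, a fold enrichment (the ratio of summit signal over local control in the authors' MACS2 run), with −log10 p and −log10 q and a deposited score that was not used. The 2 control libraries were not analysed here. Genes and TSSs of coding transcripts came from GENCODE release M21 and the sequence from GRCm38, the same build as mm10.

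Promoters were counted as marked where a summit lay within 1000 bp of a TSS of a coding transcript, and exons where a summit lay in a coding segment of at least 2000 bp and more than 1000 bp after the gene start. Of the members, 2 have an inner start over 1 kb from the first. A peak near an inner start can count in both classes, as at Pcdha11 of ENSMUSG00000102206. This also happened at Pcdhgc4, whose inner start lies within 1 kb of the first. With 1 TSS per gene, 28, 20 and 27 member promoters were marked by REX1, RNF12 WT and RNF12 H569A,C572A. For exons, 1 readthrough record was left out. Words of 32 bases were counted in both orientations over chromosomes 1 to 19 with X and Y, and a peak was taken as near a repeated word where any of the words sampled within 100 bp of the summit occurred more than once. The count of exons and the use of repeated words as a filter were chosen after seeing the data.

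Members named in the text are those marked in all 3 lists, the C-type genes, and those with the highest fold enrichment in each list (up to 10). Sites elsewhere are named if they have peaks in all 3 lists or are among the 3 highest of a list. Of the other gene lists, genes marked in all or in no list are named. With 1 library per list no test was made between conditions. Sequences of members are not printed. Counting steps were tested on simulated data. Python 3.11.15, numpy 2.4.6, pandas 2.3.3, scipy 1.17.1, numba 0.67.0 and matplotlib 3.10.9 were used.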

Additional observations from a re-analysis of the deposited data

How the results depend on the processing

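Values are in the order REX1, RNF12 WT, RNF12 H569A,C572A unless lists are named. No paired analysis was possible because each list comes from 1 library. Of 236 recomputed counts, 141 stayed within 1.5 times the reported one and 95 did not. The limits on −log10 q of 2, a distance of 500 bp, any base of the peak, 1 TSS per gene and all transcripts left every promoter count within it. At a −log10 q of at least 5, RNF12 WT marked 3 Pcdha promoters and 26 of 57 member exons, against 25.6% of all long segments. Summits elsewhere were then 49 (REX1) and 36 (RNF12 WT) over all clusters, with 9 and 12 in Pcdha, 15 and 12 in Pcdhg and 12 (RNF12 WT) in Pcdhb. With the 20000 peaks of highest −log10 q, 8, 6 and 5 of 57 member promoters were marked, against 33.9%, 38.9% and 27.8% of all genes. Member exons were then marked in 18, 14 and 18 of 57, against 9.46%, 11.4% and 4.03% of all long segments, so the exon excess remained. By cluster, promoters were then 1, 2 and 5 in Pcdha, 6, 3 and 0 in Pcdhg and 1 in Pcdhb for REX1, and summits elsewhere 21, 19 and 22, with 3, 5 and 12 in Pcdha, 13, 7 and 4 in Pcdhb and 5, 7 and 6 in Pcdhg. A distance of 2000 bp takes in exon summits: RNF12 WT then marked 48 and RNF12 H569A,C572A 42 promoters, in Pcdha 13 (REX1) and 14 (RNF12 WT), and in Pcdhb 12, 18 and 14, against 68.5%, 70.1% and 69.3% of all genes. At 300 bp, RNF12 H569A,C572A marked 17 promoters, 6 of them in Pcdhg. Beyond 2000 bp of each member TSS, summits elsewhere were 51, 42 and 56, with 12, 10 and 19 in Pcdha, 14 (RNF12 WT) and 21 (RNF12 H569A,C572A) in Pcdhb and 18 (RNF12 WT) in Pcdhg, and RNF12 WT exons 31. Summits within 100 bp of each other left 9 promoters shared by all 3 lists and 11 by REX1 with RNF12 H569A,C572A. On chromosome 18 without the members, 73.9%, 75.9% and 75% of genes were marked.

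The settings on repeated words were chosen after seeing the data. With the summit word found once, RNF12 H569A,C572A marked 13 promoters (5 in Pcdha, 8 in Pcdhg) and 22 exons, and RNF12 WT 3 promoters in Pcdha. Summits elsewhere were then 54, 54 and 30, with 18, 13 and 9 in Pcdha, 19, 17 and 11 in Pcdhb and 10 (RNF12 H569A,C572A) in Pcdhg. With no repeated word within 100 bp, promoters were 10 (RNF12 WT) and 6 (RNF12 H569A,C572A), with 3, 2 and 3 in Pcdha and 7 (RNF12 WT) and 3 (RNF12 H569A,C572A) in Pcdhg, and exons 12, 13 and 9. Summits elsewhere were then 25, 21 and 14, with 9, 7 and 5 in Pcdha, 2, 3 and 2 in Pcdhb and 14, 11 and 7 in Pcdhg. Fewer peaks are kept in these settings by construction. The depth of the libraries is unknown, so a promoter without a summit is one where none was called.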
